A study of Mus musculus with 12 samples.

Results

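Read counts of 9 voltage-gated sodium channel subunit genes were described in neuron fractions of the trigeminal ganglia (TG) and the dorsal root ganglia (DRG) of the mouse. The members were the rows whose symbol was Scn1a, Scn3a, Scn7a, Scn8a, Scn9a, Scn10a, Scn11a (7 alpha subunit genes), Scn2b or Scn4b (2 beta subunit genes), and all 9 were found among 22609 genes. The 12 libraries formed 4 groups of 3, from females or males and from DRG or TG. The animals were naive mice labelled as C57BL and 3 to 4 months old, with no transgene and no treatment in any group. The methods of the study name the substrain C57BL/6J, give a younger age, in weeks, place the females in the oestrous phase and take the DRG from lumbar levels L3 to L5, so DRG here stands for these levels only. Neurons were enriched on a Percoll density gradient after enzymatic dissociation. The fraction was bulk, so fewer neurons of a type and less RNA per neuron cannot be told apart.

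Voltage-gated sodium channels carry the inward current of the action potential. A pore-forming alpha subunit is enough for conduction, and beta subunits are single-pass membrane proteins that adjust gating and placement at the membrane. In sensory neurons the channels differ in their block by tetrodotoxin: the channels encoded by Scn10a (Nav1.8) and Scn11a (Nav1.9) are resistant and typical of small pain-sensing neurons, while those encoded by Scn9a (Nav1.7), Scn8a (Nav1.6), Scn1a (Nav1.1) and Scn3a (Nav1.3) are sensitive. Scn8a encodes the main channel of nodes of Ranvier, Scn4b encodes a beta subunit associated with resurgent current, and Scn7a encodes a sodium-sensing relative that is not opened by voltage in the usual way.

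The stretch around the selectivity filter of the first domain is shown because it holds the codon that separates the toxin-resistant from the toxin-sensitive channels. Each line is 30 coding bases of the mm9 genome (GENCODE annotation of the same build), 5′ to 3′ on the coding strand, within 1 coding exon, and the codon is in capitals. The Scn7a stretch was placed by alignment with Scn9a, and the others by their shared pattern.
Scn10a (chr9:119575490-119575519, strand -, exon 8): atgacgcaggacTCCtgggaacggctgtac
Scn11a (chr9:119714783-119714812, strand -, exon 9): atgactcaagacTCCtgggagaagctttat
Scn9a (chr2:66387043-66387072, strand -, exon 9): atgactcaggacTACtgggagaacctttat
Scn8a (chr15:100802057-100802086, strand +, exon 7): atgactcaggacTACtgggagaacttatac
Scn3a (chr2:65359855-65359884, strand -, exon 9): atgactcaagacTACtgggagaacctttac
Scn7a (chr2:66564217-66564246, strand -, exon 9): atgacacaggatTACcctgaattactttat
In Scn10a and Scn11a the codon read TCC, for serine. It read TAC, for tyrosine, in Scn9a, Scn8a, Scn3a and Scn7a. An aromatic residue at this place is known to favour toxin binding.

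In mm9, 4 of the alpha genes lay on chromosome 2 with Scn2a1 between Scn3a and Scn1a: Scn3a (65295175 to 65405684), Scn1a (66108838 to 66278897), Scn9a (66318137 to 66473009) and Scn7a (66511482 to 66622971), all but Scn2a1 on the minus strand. Scn2a1 lay 53229 bases from Scn3a and 503333 bases from Scn1a. Scn1a and Scn9a were 39239 bases apart. Scn9a ended 38472 bases from Scn7a. Scn10a (119517584 to 119603478) and Scn11a (119662881 to 119734574) were neighbours on the minus strand of chromosome 9. Scn2b (44925959 to 44938153) and Scn4b (44946520 to 44962235) were neighbours on the plus strand of the same chromosome, 8366 bases apart. Scn8a was alone on chromosome 15 (100763860 to 100876360). Reads that aligned to more than 1 place were held in a summary line, apart from the gene counts. Members could thus be undercounted where 50-base windows of their transcripts also occur in other genes. Such windows made up 8.53% of Scn3a, 5.48% of Scn1a, 5.36% of Scn9a and 2.10% of Scn10a, and at most 0.820% of the other members. Scn9a shared 180 exon bases with Gm13629 on the opposite strand, and since the strand setting of the counting was not stated, reads of this stretch cannot be assigned with certainty.

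Promoter stretches from RefSeq (250 bases before to 50 after a transcript start) matched 8 of the 9 members (all but Scn3a), and each was found unchanged at 1 place in mm9. Those of Scn8a and Scn4b are shown because these genes carried the TG against DRG difference below. CG dinucleotides are in capitals. The letters searched were CG, which read the same on both strands and do not overlap another motif.
Scn8a (chr15:100700826-100701125, strand +): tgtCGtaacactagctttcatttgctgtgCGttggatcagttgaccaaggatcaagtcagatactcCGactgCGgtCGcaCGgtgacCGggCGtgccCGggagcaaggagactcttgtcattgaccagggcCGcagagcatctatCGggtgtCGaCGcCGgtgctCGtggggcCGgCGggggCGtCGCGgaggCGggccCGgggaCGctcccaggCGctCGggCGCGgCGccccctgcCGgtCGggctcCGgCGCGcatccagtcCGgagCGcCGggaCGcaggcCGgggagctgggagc
Scn4b (chr9:44946457-44946756, strand +): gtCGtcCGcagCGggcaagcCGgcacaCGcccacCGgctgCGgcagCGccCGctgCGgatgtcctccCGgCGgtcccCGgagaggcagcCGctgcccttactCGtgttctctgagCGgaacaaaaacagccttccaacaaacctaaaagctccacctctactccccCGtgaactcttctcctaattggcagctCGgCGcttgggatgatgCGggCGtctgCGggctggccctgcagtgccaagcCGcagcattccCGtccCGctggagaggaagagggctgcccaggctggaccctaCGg
The Scn8a stretch held 38 CG dinucleotides, a number reached by 4.95% of 32851 stretches of this length. The Scn4b stretch held 26, reached by 16.9%. The median of all stretches was 7. A more downstream Scn8a start held 12, and the stretches of Scn10a, Scn9a, Scn1a, Scn7a, Scn11a and Scn2b held 11, 9, 5, 3, 3 and 2. The upstream Scn8a start lay outside the Scn8a span of the annotation used for length. The Scn10a stretch (119628101 to 119628400) likewise lay outside the Scn10a span of that annotation.

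Reads in genes numbered 7511765 to 15396090 per library, so that 3 counts, taken as the smallest level the depth can show, corresponded to 0.195 to 0.399 CPM (counts scaled to a common TMM-adjusted library total). All members were far above this level, with counts from 91 to 238 for Scn3a and from 341 to 24704 for the others. Libraries numbered 3 stood apart from libraries 1 and 2 of their own groups. The chi-square of counts per degree of freedom was 54.3 to 111 for pairs that included library 3 and 13.8 to 32.2 for pairs of libraries 1 and 2, and no pair agreed within sampling noise. Malat1, a nuclear RNA, held 3.42% to 4.21% of the reads in genes of libraries 3 and 1.81% to 3.04% in the other libraries. Neither labels nor headers say what the number marks, so results are also given without libraries 3, and their part in a result was not tested. The design names 3 males and 3 females, but which animal gave which library, and whether a TG and a DRG library share an animal, is not stated, so p-values measure the spread between these libraries, which may be technical.

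The fractions carried the markers of sensory neurons. Tubb3, a neuronal tubulin, had 2384 ± 873 CPM in DRG and 1666 ± 453 in TG (SD, n = 6), and 0 of 6 pan-neuronal markers were called between ganglia with edgeR or DESeq2 (1 of 6 at an unadjusted p under 0.05). Glial RNA was present as well: the summed level of 4 satellite glia markers was 2256 to 5264 CPM in DRG and 3453 to 6158 CPM in TG libraries, and that of 5 Schwann cell markers was 2483 to 3480 and 2233 to 3425 CPM. Of 3 red blood cell markers, Hba-a1 and Hbb-b1 were at 0 in every library. The other, Alas2, had 30 to 290 counts. It gave the list a summed level of 2.80 to 20.3 CPM in DRG and 4.40 to 20.0 CPM in TG. The 0 values of the globin genes therefore do not show that red blood cell RNA was absent. Of 3 markers of the central nervous system analysed here, Neurod6 was at 0, Mog of central myelin had at most 1 count and Gad1 had at most 35 counts. The 9 glial markers gave 0 calls between TG and DRG with edgeR or DESeq2, and 0 at an unadjusted p under 0.05.

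Levels of different genes were compared per length, as RPKM (CPM per kilobase of exon). The toxin-resistant Scn10a and Scn11a and the sodium-sensing Scn7a made up the top 3 of the 12 sodium channel subunit genes analysed here in both ganglia. In DRG the mean RPKM was 206 ± 49.1 for Scn10a, 177 ± 67.0 for Scn7a and 163 ± 48.3 for Scn11a (SD, n = 6). The order within these 3 was not fixed across libraries: Scn10a was above Scn7a in 5 of 6 DRG libraries, and Scn7a was above Scn11a in 4 of 6. All 3 stood clear of Scn9a, the toxin-sensitive channel best known from human pain disorders, at 75.8 ± 36.1 RPKM, with Scn11a above Scn9a in 6 of 6 libraries. Scn4b followed at 39.2 ± 6.42 RPKM and lay below Scn9a in 6 of 6. The non-member Scn3b came next at 31.9 ± 7.40 RPKM. Scn1a, a channel of large fibres, had 24.5 ± 8.95 RPKM, Scn8a had 16.6 ± 1.70 and Scn2b, a disulfide-linked beta subunit, had 11.6 ± 3.51. Scn1a was above Scn8a in 5 of 6 libraries and Scn8a above Scn2b in 4 of 6, so these neighbours did not separate beyond their spread. Scn3a, the embryonic channel that returns after nerve injury, was lowest among the members at 1.12 ± 0.32 RPKM.

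In TG the order of the means changed around Scn4b and Scn8a. Scn7a had 176 ± 51.4 RPKM, Scn10a 142 ± 35.5 and Scn11a 117 ± 15.5 (SD, n = 6). Scn7a was above Scn10a, and Scn10a above Scn11a, in 4 of 6 libraries. Scn4b came next at 91.1 ± 20.0 RPKM, above Scn9a at 60.0 ± 17.1 in 5 of 6 libraries, whereas in DRG it lay below Scn9a in all. Scn8a averaged 35.6 ± 7.84 RPKM and Scn1a 30.2 ± 10.7. Scn8a was above Scn1a in 4 of 6 TG libraries, with a log2 ratio of 0.31 ± 0.73, so these neighbours did not separate beyond their spread. Scn2b had 13.5 ± 3.48 RPKM and Scn3a 1.19 ± 0.38. The plot of level per length shows the 12 genes, ordered by their DRG means.

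**Figure D1:**
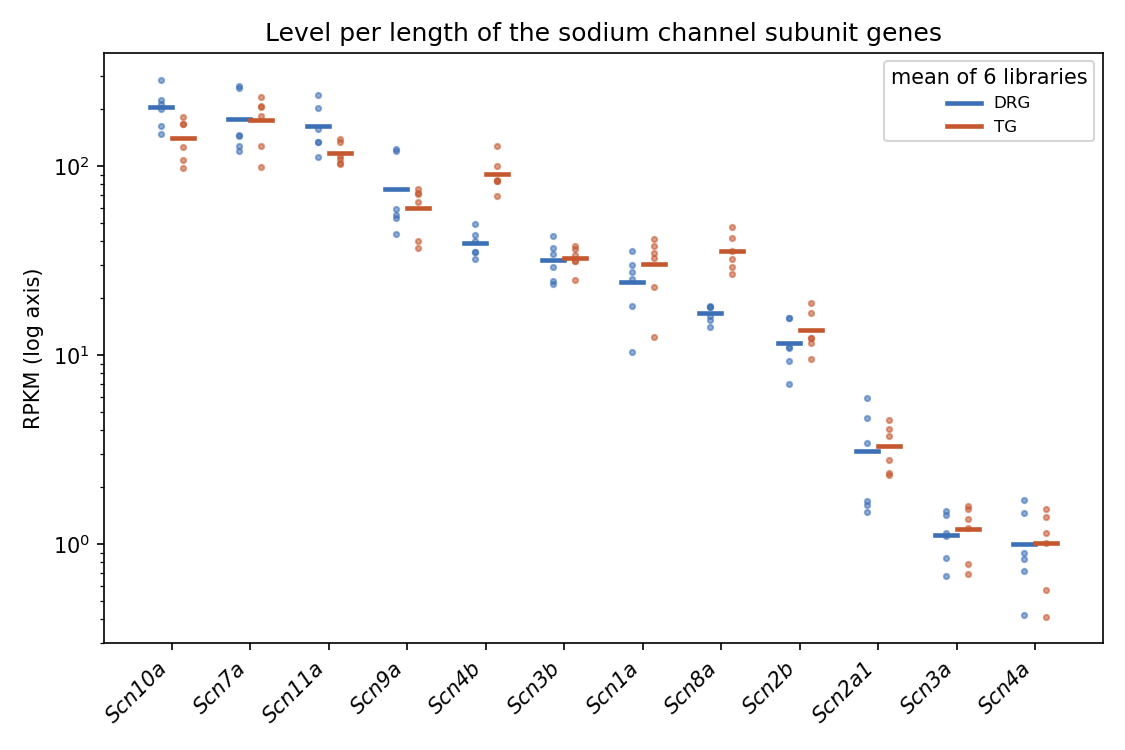
RPKM (log axis) of 12 sodium channel subunit genes in DRG (blue) and TG (orange), ordered by the DRG mean. Points are libraries and bars are means of 6 libraries. Scn10a, Scn7a and Scn11a are at the top in both ganglia (117 to 206 RPKM), and the bars separate most for Scn4b and Scn8a.

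The comparison of TG with DRG asked whether cranial and spinal sensory neurons differ in these subunits. In the main fit over the 12 libraries, Scn8a and Scn4b were higher in TG by more than 2-fold, and no other member was called. Scn10a and Scn11a were lower in TG on average, but neither passed the adjusted threshold in this edgeR fit, which had no block. With libraries of the same sex and number as a block, edgeR called Scn10a as well (adjusted p 0.0056), beside 3.79% of all genes. With this block and an offset for GC content and length, it called Scn10a (adjusted p 0.0010) and Scn11a (0.026), beside 3.45% of all genes. Main calls were made with edgeR's quasi-likelihood F-test over 14829 genes at an adjusted p under 0.05 (Benjamini-Hochberg). The model had 4 group means. Of the 9 members, all of which passed the filter on low counts, 2 were called, both with a fold change above 2. Among all genes tested, 0.964% were called in either direction, 0.627% were higher in TG, 0.337% were higher in DRG and 0.769% were called with a fold change above 2. The median log2 fold change (TG minus DRG) was 0.07 over the members and -0.01 over all genes.

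Scn8a had 220, 170 and 187 CPM in female DRG libraries 1 to 3, and 218, 196 and 219 CPM in male DRG libraries 1 to 3. In TG the values were 577, 393 and 324 CPM in females and 357, 434 and 506 CPM in males. Every TG library lay above every DRG library. TG averaged 432 ± 95.1 and DRG 202 ± 20.6 CPM (SD, n = 6). The log2 fold change was 1.10 (SE 0.18, 95% interval 0.72 to 1.47, adjusted p 0.0025). It was 1.12 without libraries 3 (adjusted p 0.00077). The spread among TG libraries was wider than among DRG libraries, in both sexes.

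Scn4b had 174, 159 and 199 CPM in female DRG and 244, 214 and 173 CPM in male DRG. It had 628, 492 and 345 CPM in female TG and 410, 410 and 416 CPM in male TG. Here too all TG libraries were above all DRG libraries. TG averaged 450 ± 98.9 and DRG 194 ± 31.7 CPM (SD, n = 6), a log2 fold change of 1.22 (SE 0.18, 95% interval 0.84 to 1.59, adjusted p 0.00098). It was 1.30 without libraries 3 (adjusted p 6.8e-05). Scn4b ranked 31 and Scn8a 48 by p among 14829 genes. A complete separation of the 6 TG from the 6 DRG libraries with TG higher was found for 0.998% of all genes and for 2 of 9 members, and with DRG higher for 0.364% of genes and for 0 members.

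Within each sex alone, with 3 libraries against 3, both genes kept their direction but not the call. In females the log2 fold change was 1.18 for Scn8a (adjusted p 0.585) and 1.48 for Scn4b (adjusted p 0.286). In males it was 1.03 for Scn8a (adjusted p 0.0863) and 0.97 for Scn4b (adjusted p 0.0931). The number of genes called among all genes was then 5 in females and 58 in males. Leaving out any 1 of the 12 libraries left both genes called.

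**Figure D2:**
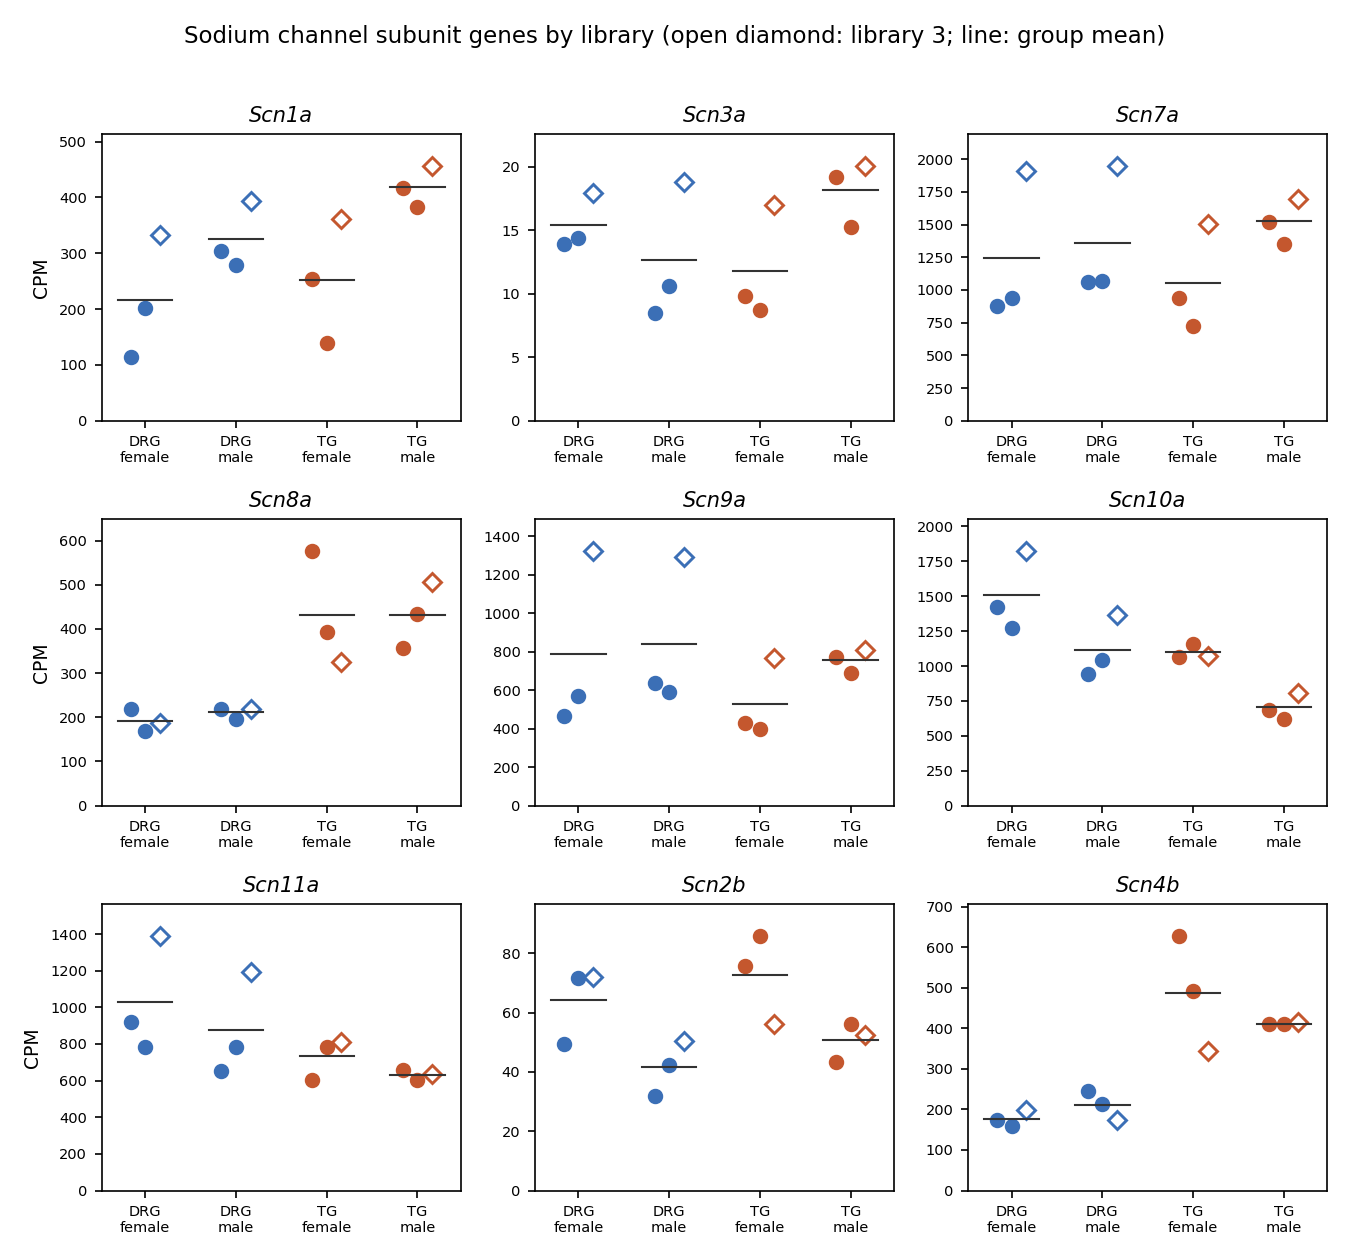
TMM-scaled CPM of the 9 members in each library, with a panel per gene, DRG in blue and TG in orange, libraries 3 as open diamonds and the mean of each group of 3 as a line. For Scn8a and Scn4b the TG points (324 to 577 and 345 to 628 CPM) lie above all DRG points, and for Scn7a and Scn9a the DRG libraries 3 lie well above libraries 1 and 2.

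Scn10a, the defining channel of nociceptors, had 1422, 1273 and 1824 CPM in female DRG and 942, 1042 and 1366 CPM in male DRG. In TG it had 1068, 1157 and 1071 CPM in females and 686, 622 and 806 CPM in males. Each TG group was below the DRG group of the same sex in every library, while the female TG values overlapped the male DRG values. TG averaged 902 ± 226 and DRG 1312 ± 313 CPM (SD, n = 6). The log2 fold change was -0.56 (SE 0.16, 95% interval -0.91 to -0.21, unadjusted p 0.0032, adjusted p 0.156). With DESeq2 it was -0.60 (adjusted p 0.0091), where 1.98% of all genes were called. Without libraries 3 it was -0.44 with edgeR (adjusted p 0.011), where 5.47% of all genes were called.

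Scn11a, which carries a persistent current near the resting potential, had 919, 782 and 1390 CPM in female DRG and 654, 781 and 1191 CPM in male DRG. In TG it had 605, 781 and 809 CPM in females and 659, 602 and 636 CPM in males. The ganglia overlapped, and the highest values were those of DRG libraries 3. The log2 fold change was -0.48 (SE 0.19, 95% interval -0.88 to -0.08, unadjusted p 0.022, adjusted p 0.415), and it was -0.24 without libraries 3 (adjusted p 0.270). At an unadjusted p under 0.05, 4 of the 9 members (Scn8a, Scn4b, Scn10a and Scn11a) were found, beside 8.83% of all genes.

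Scn9a and Scn7a did not differ between ganglia beyond the spread of the libraries. Scn9a had 467, 568 and 1323 CPM in female DRG, 635, 590.5 and 1290 CPM in male DRG, 428, 396 and 765 CPM in female TG and 770, 690.1 and 809 CPM in male TG. DRG libraries 3 were 2.56-fold and 2.11-fold above the mean of libraries 1 and 2 of their group. The log2 fold change was -0.36 (SE 0.27, 95% interval -0.92 to 0.20, adjusted p 0.841) and -0.04 without libraries 3 (95% interval -0.24 to 0.17). Scn7a had 878, 938 and 1910 CPM in female DRG and 1060, 1072 and 1947 CPM in male DRG, against 936, 726 and 1504 CPM in female TG and 1521, 1354 and 1696 CPM in male TG. Its log2 fold change was -0.04 (SE 0.24, 95% interval -0.54 to 0.47), and 0.15 without libraries 3.

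The remaining members were not called. Scn1a averaged 335 ± 118 CPM in TG against 271 ± 99.2 in DRG (SD, n = 6), a log2 fold change of 0.29 (95% interval -0.23 to 0.81, adjusted p 0.891). Scn2b had 61.7 ± 15.9 and 53.0 ± 16.0 CPM, with 0.23 (95% interval -0.18 to 0.63, adjusted p 0.886). Scn3a had 15.0 ± 4.77 and 14.03 ± 4.00 CPM, with 0.07 (95% interval -0.53 to 0.67). For each of these 3, the interval still allowed a change of more than 1.5-fold toward higher TG levels.

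**Figure D3:**
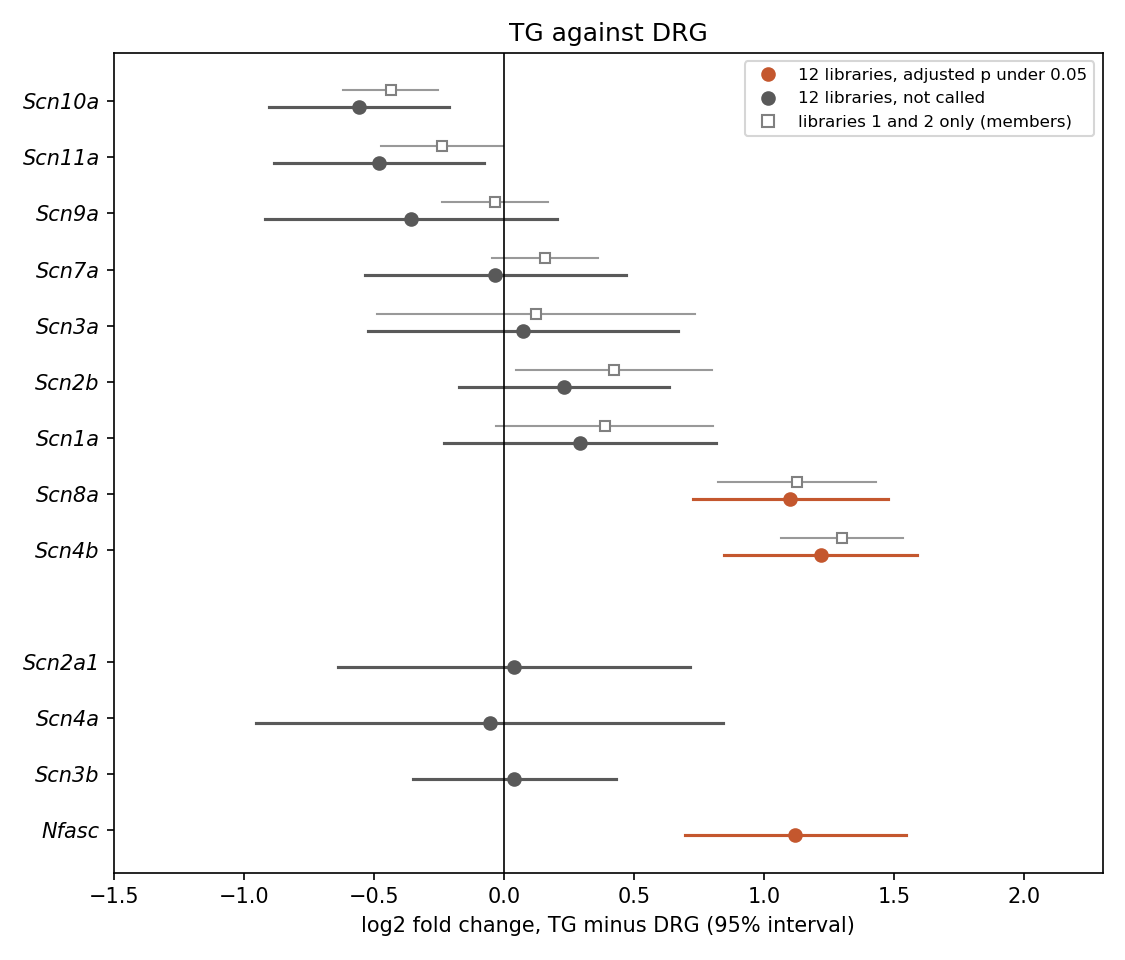
Log2 fold change (TG minus DRG) with its 95% interval for the 9 members, the 3 other subunit genes and Nfasc, from 12 libraries (filled) and, for the members, from libraries 1 and 2 only (open squares). Scn8a, Scn4b and Nfasc are called (orange, 1.10 to 1.22). In the main fit of 12 libraries, without a block, Scn10a and Scn11a lie at -0.56 and -0.48 without passing the adjusted threshold.

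The position of the members relative to each other shifted with Scn8a. The share of Scn8a in the summed RPKM of 9 alpha subunit genes (the 7 members, Scn2a1 and Scn4a) was 2.64% ± 0.71 in DRG (1.60% to 3.49%) and 6.39% ± 1.74 in TG (4.12% to 9.25%; SD, n = 6), without overlap. The log2 ratio of Scn8a to Scn10a (RPKM) was -3.60 ± 0.40 in DRG (-4.22 to -3.04) and -1.98 ± 0.48 in TG (-2.65 to -1.45), again without overlap. The toxin-resistant genes Scn10a and Scn11a together held 55.8% ± 6.56 of the alpha sum in DRG and 46.2% ± 10.3 in TG, and these ranges overlapped (48.4% to 66.1% and 37.2% to 63.1%). These shares use the same counts as the fold changes and were not tested on their own.

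Some pairs kept their ratio. The log2 ratio of Scn4b to Scn8a was 1.23 ± 0.23 in DRG and 1.36 ± 0.22 in TG (SD, n = 6). That of Scn10a to Scn11a was 0.35 ± 0.18 and 0.25 ± 0.30. The ratio of Scn7a to Scn9a was higher in TG, with little overlap. It was 1.27 ± 0.15 in DRG (1.08 to 1.46) and 1.55 ± 0.09 in TG (1.42 to 1.68). Over the 12 libraries, log2 levels of Scn8a and Scn4b had a Pearson r of 0.946, Scn7a and Scn9a 0.948 and Scn10a and Scn11a 0.841. These values describe libraries that share group, ganglion and number, and for Scn8a and Scn4b the points fall into a DRG and a TG cluster.

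**Figure D4:**
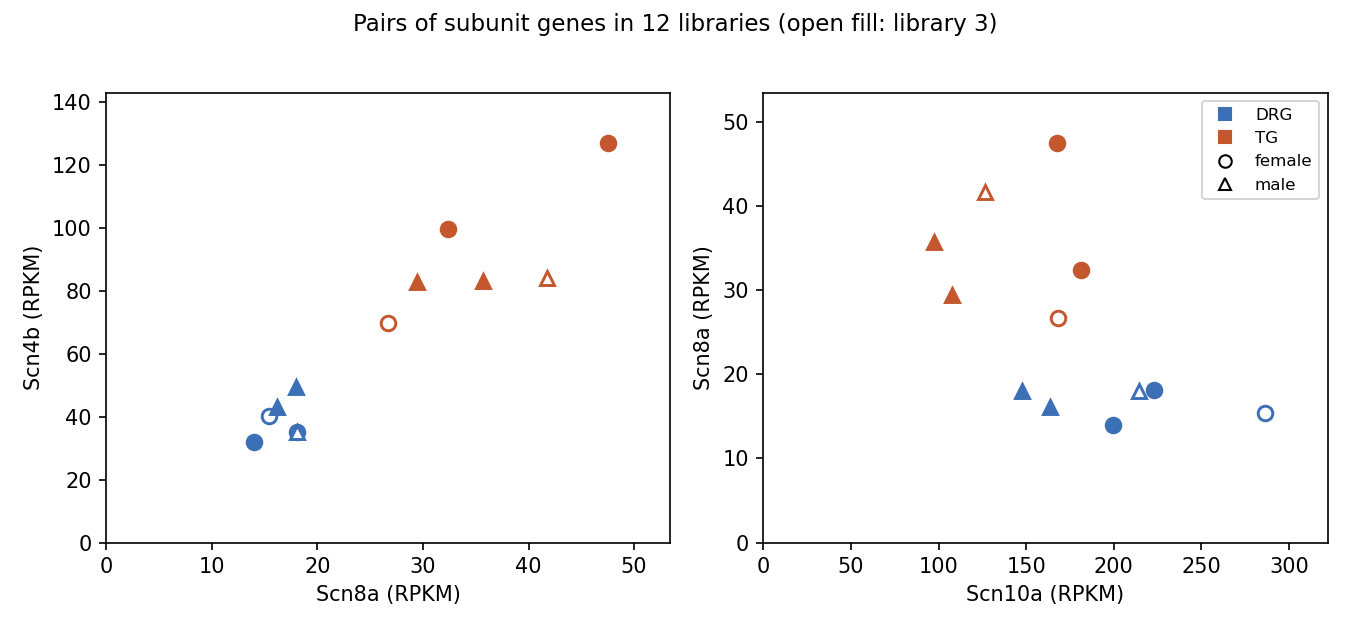
RPKM of Scn4b against Scn8a (left) and of Scn8a against Scn10a (right) in 12 libraries, DRG in blue, TG in orange, females as circles, males as triangles and libraries 3 unfilled. On the left the TG libraries sit apart at higher levels of both genes, and on the right all TG libraries lie above all DRG libraries in Scn8a while their Scn10a ranges overlap.

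For each member the 3 genes with the highest Pearson r of log2 level over the 12 libraries were listed. Scn8a was closest to Kcnq3 (0.972), which encodes an M-current potassium channel subunit, Adam23 (0.971), an LGI receptor of axons, and Gpr26 (0.956). Scn4b was closest to Tmem229b (0.963), Adam23 (0.948) and Otud7b (0.947), so that Adam23 was in both lists. Since the libraries of both members split by ganglion, choosing genes this way favours those higher in TG, and their log2 fold changes are given as a description with no test: 1.66 for Kcnq3, 1.20 for Adam23, 1.74 for Gpr26, 1.44 for Tmem229b and 1.14 for Otud7b. The closest gene was Ppp1r2 for Scn10a (0.961), Serping1 for Scn11a (0.949), Agtpbp1 for Scn9a (0.991), Blzf1 for Scn7a (0.983), Pcsk1 for Scn1a (0.987), Scai for Scn3a (0.949) and Trf for Scn2b (0.927).

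The 3 other subunit genes analysed here gave 0 calls with edgeR or DESeq2, and 0 at an unadjusted p under 0.05. Scn3b, a beta subunit of small neurons, averaged 151 ± 21.2 CPM in TG against 147 ± 34.1 in DRG (SD, n = 6), a log2 fold change of 0.04 (95% interval -0.35 to 0.43). Scn2a1, a channel of central neurons, had 30.6 ± 8.67 and 28.9 ± 17.1 CPM, with 0.04. The muscle channel Scn4a had 7.10 ± 3.11 and 7.07 ± 3.39 CPM, with -0.06.

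Of 16 genes listed for partners of the channels, 15 matched a symbol. The list covered fibroblast growth factor homologous factors, ankyrin and axonal adhesion proteins, ubiquitin ligases, trafficking proteins and the leak channel Nalcn. At an unadjusted p under 0.05 there were 6, in both directions, beside 8.83% of all genes. At the adjusted threshold 1 was called, beside 0.964% of all genes. This was Nfasc, which encodes neurofascin, an adhesion molecule of nodes and initial segments. It had 157, 123 and 103 CPM in female DRG, 126, 115 and 110.5 CPM in male DRG, 417, 285 and 177 CPM in female TG and 207, 246 and 268 CPM in male TG. All TG libraries were above all DRG libraries. The log2 fold change was 1.12 (SE 0.20, 95% interval 0.69 to 1.54, adjusted p 0.0068). Ank3, the ankyrin that anchors sodium channels, averaged 273 ± 67.0 CPM in TG against 277 ± 44.4 in DRG (SD, n = 6), with a log2 fold change of -0.04 (95% interval -0.39 to 0.30). S100a10, which binds the Scn10a channel and favours its transport to the membrane, had 795 ± 380 and 1395 ± 756 CPM, with -0.79 (adjusted p 0.170). DESeq2 called S100a10, beside 1.98% of all genes. The list had a median log2 fold change of -0.04.

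Markers of neuron classes are given beside these results. In the list of large myelinated neurons 0 of 5 markers were called with edgeR (1 at an unadjusted p under 0.05). DESeq2 called 1, Pvalb, beside 1.98% of all genes. The summed level of the list was 825 to 1323 CPM in DRG and 807 to 1165 CPM in TG libraries. Nefh, the heavy neurofilament of large axons, averaged 308 ± 68.0 CPM in TG against 271 ± 45.8 in DRG (SD, n = 6), a log2 fold change of 0.18. Pvalb of proprioceptors had 58.3 ± 22.5 and 130 ± 88.3 CPM, with -1.10 (adjusted p 0.175). Beside the lower mean of Scn10a and Scn11a, 2 of 5 peptidergic markers were called lower in TG (Calcb -1.10, adjusted p 0.013, and Trpv1 -0.76, adjusted p 0.042). Of 4 non-peptidergic markers 1 was called lower (Mrgprd -0.78, adjusted p 0.031). Among all genes tested, 0.337% were called lower in TG. Trpm8 of cold-sensing neurons was higher in TG (2.65, adjusted p 1.4e-07) and Th of low-threshold C fibres lower (-3.50, adjusted p 1.4e-07). The part of neuron class shares in the subunit differences was not tested.

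The sexes were compared within each ganglion. In DRG 0 of 9 members reached an unadjusted p under 0.05 with edgeR or with DESeq2, beside 11.8% of 13963 genes tested. The member with the smallest p was Scn2b, with 64.4 ± 12.8 CPM in female and 41.6 ± 9.28 in male libraries (SD, 3 each) and a log2 fold change (female minus male) of 0.63 (95% interval -0.04 to 1.30). Scn8a differed by -0.13 (95% interval -0.68 to 0.42), Scn9a by -0.11 (-1.01 to 0.80) and Scn4b by -0.24 (-0.80 to 0.32). These intervals include changes of more than 1.5-fold in at least 1 direction.

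In TG 3 of 9 members reached an unadjusted p under 0.05, beside 20.7% of 14009 genes, and none passed the adjusted threshold with edgeR when all 6 libraries were used. Scn10a was at 1099 ± 50.4 CPM in female and 705 ± 93.4 in male libraries (SD, 3 each), with no overlap and a log2 fold change of 0.69 (95% interval 0.24 to 1.14, adjusted p 0.157, and 0.032 with DESeq2). At the adjusted threshold DESeq2 called 4.23% of all genes in this comparison, and edgeR called 5 genes. Scn1a was at 251 ± 112 and 419 ± 36.8 CPM, with no overlap and -0.70 (95% interval -1.36 to -0.03, adjusted p 0.228). Scn2b was at 72.6 ± 15.2 and 50.7 ± 6.59 CPM, with overlap and 0.57 (95% interval 0.01 to 1.13, adjusted p 0.237). The value for Scn10a fell to 0.28 when GC content and length of genes were fitted (unadjusted p 0.212). Reads outside annotated genes made up 43.5% to 50.4% in female and 37.6% to 47.9% in male libraries. Their part in these values was not tested.

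Female TG library 3 decided how many members stood out. Without it 7 of 9 members had an unadjusted p under 0.05, but so did 38.1% of all genes, and 6 of 9 (Scn1a, Scn3a, Scn7a, Scn9a, Scn10a and Scn2b) passed the adjusted threshold with edgeR, beside 23.6% of all genes. Leaving out any other TG library left 1 member, Scn10a, at an unadjusted p under 0.05 and 0 past the adjusted threshold. Without all libraries 3 the count was 7 of 9 in TG, beside 51.3% of genes, and 4 of 9 in DRG, beside 26.1% of genes. At the adjusted threshold it was then 7 of 9 in TG, beside 44.1% of genes, and 1 of 9 (Scn10a) in DRG, beside 10.1% of genes. Scn9a then differed by -0.82 in TG and Scn7a by -0.79, lower in females, since female TG libraries 1 and 2 held 428 and 396 CPM of Scn9a against 770 and 690.1 CPM in males. The difference of the sex effect between ganglia was tested in the model of 12 libraries. With edgeR or DESeq2, 0 of 9 members had an unadjusted p under 0.05, beside 1.97% of genes, and the smallest adjusted p over all genes was 0.9998. Without libraries 3 there were 4 members (Scn3a, Scn7a, Scn9a and Scn4b) beside 11.1% of genes, with adjusted p of at least 0.272 for the members.

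**Figure D5:**
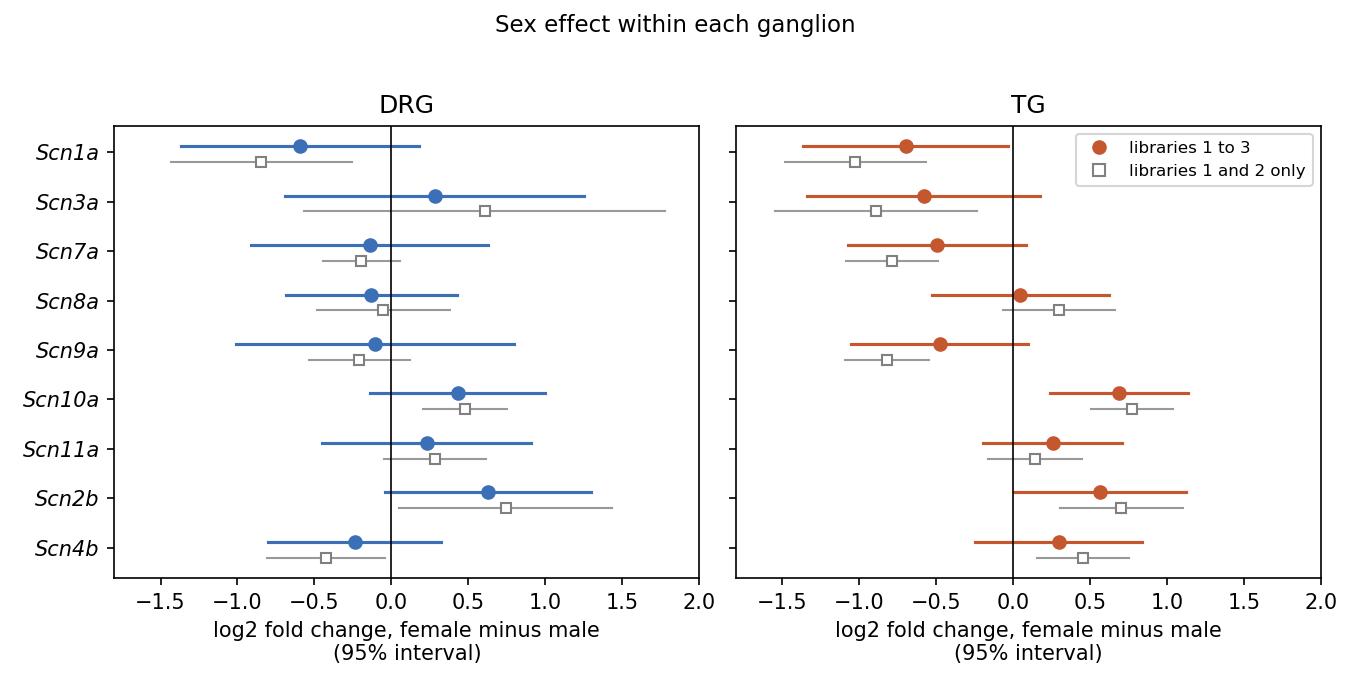
Log2 fold change (female minus male) with its 95% interval for the 9 members in DRG (left) and TG (right), from libraries 1 to 3 (filled) and from libraries 1 and 2 only (open squares). With 3 libraries per sex, all DRG intervals cross 0 and in TG those of Scn10a, Scn1a and Scn2b do not.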

How the data were processed

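Per the labels and the methods of the study, total RNA of Percoll-enriched neuron fractions was depleted of ribosomal RNA, made into dUTP stranded libraries and read as single reads on an Illumina HiSeq. The authors aligned reads to mm9 with TopHat2 at default settings. The deposited files hold raw HTSeq counts per gene symbol, with no normalization, and 5 summary lines that are not genes and were left out of all totals. Tool versions, the annotation and the strand setting of the counting were not given in the sources used here. Reads outside genes were 37.6% to 50.4% of reads in and outside genes. Reads were amplified and carry no molecular identifiers, so floors of 3 counts cover counting error only.

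Counts were tested with edgeR 4.0.16 in R 4.3.3 (filterByExpr, TMM, quasi-likelihood F-test, Benjamini-Hochberg over all genes tested), and with DESeq2 1.42.0 as an alternative. TG against DRG and the difference of the sex effect used a mean per group over 12 libraries, and sexes were compared within the 6 libraries of a ganglion. The SE is the log2 fold change divided by the root of F. All p-values are two-sided. Log2 levels for correlations used a prior count of 2. CPM were TMM-scaled, and RPKM used the union of exons of the GENCODE annotation on NCBIM37 (mm9), which matched 21672 of 22609 genes, 45 of them through an older symbol. Group and number came from the sample titles. Same-numbered libraries are not stated to share animals, so no block was used in the main fit. Correlations of their deviations from group means were 0.028 to 0.216 between TG and DRG of one sex. Between sexes they were -0.098 to 0.168. Whether the numbers pair the libraries was not tested.

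Named genes were all members, 3 other subunit genes, called partner genes (at most 5) and the 3 genes closest to each member. Values of Ank3, S100a10 and single markers were added after they were seen. The members and lists were chosen with earlier results of these data known. Some genes and sequences are not reported here.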

Additional observations from a re-analysis of the deposited data

How the results depend on the processing

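Scn8a and Scn4b were called in TG against DRG under every alternative run except the fits within 1 sex: their log2 fold changes ranged from 0.93 to 1.19 and from 0.97 to 1.48. The 2 members called became 4 with the replicate block and a GC and length offset (Scn10a and Scn11a added), 3 with the replicate block alone, with DESeq2 and without libraries 3 (Scn10a added), and 0 with female or male libraries only, where fewer samples were tested. The 143 genes called became 347 with DESeq2, 218 without the filter on low counts, 562 with the replicate block, 511 with the block and the offset, 5 in females, 58 in males, 814 without libraries 3 and 77 to 231 with 1 library left out. The replicate block rests on numbers alone: 8 of 12 libraries correlated best with their own number in the other ganglion, and 6 of 12 in the other sex. Scn7a (TG minus DRG) changed sign, to 0.019 without scaling, 0.0065 with the replicate block, 0.015 with the offset, 0.017 with both, 0.15 in males, 0.15 without libraries 3 and -0.21 to 0.19 with 1 library left out. Scn3a was -0.38 in females only and -0.10 to 0.27 with 1 library left out.

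Between sexes in DRG, 0 members had an unadjusted p under 0.05 in the main fit, beside 11.8% of all genes. Without scaling there were 2 (beside 13.1% of all genes), with the replicate block 3 (16.1%), with the offset 2 (7.86%) and with both 4 (10.6%). The model of 12 libraries gave 1 (14.3%), and the fit without libraries 3 gave 4 (26.1%). With 1 library left out there were 0 to 2, beside 4.43% to 20.7% of all genes. Without scaling the median of all genes moved from 0.02 to 0.19, and Scn7a, Scn8a and Scn9a changed sign to 0.0047, 0.0501 and 0.028. With 1 library left out, Scn7a ranged from -0.59 to 0.25, Scn9a from -0.71 to 0.39 and Scn11a from -0.045 to 0.55. In TG the main fit had 3 members, beside 20.7% of all genes. With the offset there was 1 (beside 8.83% of all genes), with block and offset 0 (5.62%) and in the model of 12 libraries 1 (15.7%). The fit without libraries 3 gave 7 (51.3%). With 1 library left out there were 1 to 7, beside 8.82% to 38.1% of all genes. Scn8a changed sign to -0.32 with the offset, -0.34 with block and offset and -0.0035 in the model of 12 libraries (-0.27 to 0.18 with 1 library left out), and Scn4b to -0.24 and -0.25 with the offset without and with the block. The difference of the sex effect had 4 members without libraries 3, beside 11.1% of all genes. The causes of these changes were not tested. Mean RPKM over the longest transcript was 1.47 for Scn3a and 18.4 for Scn8a in DRG, and kept within 1 SD for the other levels.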

Other observations

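Scn1a, Scn3a, Scn7a and Scn9a, the members of the chromosome 2 cluster, were higher in library 3 than in libraries 1 and 2 in 4 of 4 groups, as were 929 of 14829 genes tested (6.26%). The ratio of library 3 to the mean of libraries 1 and 2 ran from 1.11 to 2.56 for Scn9a, from 1.18 to 2.10 for Scn7a, from 1.16 to 1.96 for Scn3a and from 1.14 to 2.10 for Scn1a. Scn10a and Scn11a were above in 3 of 4 groups, and Scn8a, Scn2b and Scn4b in 2 of 4. The exon GC content was 40.2% to 42.2% for the first 4 genes and 48.1% to 54.3% for the other 5 members. The part of GC content and of the Malat1 share in this pattern was not tested.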
